A study of Mus musculus with 18 samples.

Results

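MHC class II C1q cells of mouse skin were single cells selected on their own RNA counts, so the genes named in this paragraph are a description and not a finding. A cell had to carry at least 5 unique molecular identifiers (UMIs, 1 per captured RNA molecule) of C1qa, C1qb and C1qc together, and at least 1% of its UMIs had to come from H2-Aa, H2-Ab1, H2-Eb1 and Cd74. It also had to carry fewer than 2 UMIs of Cd209f, Ccl24, Folr2 and Cd163, fewer than 3 of Ly6c2, Chil3, Plac8 and Msr1, under 2% S100a8 and S100a9 and 0 Cd3 UMIs. These limits kept 566 of 47251 cells that passed quality limits, 470 in control skin and 96 in expanded skin. At the edges of the limits, 31 selected cells had exactly 5 C1q UMIs, while 26 other cells missed selection with 4. At 1% to 1.1% MHC class II UMIs there were 7 selected cells, against 8 left out at 0.9% to 1%. A further 152 selected cells had 1 UMI of the Cd209f group and 79 had 2 of the Ly6c2 group, where 100 and 42 cells fell just outside.

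C1q is the recognition part of the classical complement pathway, built from the chains A, B and C that C1qa, C1qb and C1qc encode, and tissue macrophages are its main source. MHC class II molecules (H2-Aa, H2-Ab1, H2-Eb1, with Cd74 as their chaperone) show peptides to helper T cells. Cells that carry both in the dermis are usually taken for macrophages that present antigen, whereas Langerhans cells, the antigen-presenting cells of the epidermis, are known for langerin (Cd207) and the adhesion molecule Epcam.

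The study asked how mouse skin responds to stretch. Every mouse had back surgery with a cut near the tail and a channel under the skin. Expanded mice received a hydrogel expander near the neck and control mice none, so control skin is operated skin. Living cells were sorted from whole skin 1, 2 or 4 days later and measured by droplet 3′ RNA sequencing, with the mice of an arm pooled in 1 tube per sequencing round. The 5 control and 5 expanded libraries were paired by day and round, as day 1 in rounds 1 and 2, day 2 in rounds 1 and 2, and day 4 in round 1, and library values below keep that order. Strain, sex and age are not given in the sources used here, and nothing says more of genotype. Libraries held 17726739 to 75470722 gene UMIs and 1927 to 8312 kept cells. The selected cells numbered 41, 127, 33, 87 and 182 in the control libraries and 8, 27, 23, 11 and 27 in the expanded ones. Selected expanded cells carried more UMIs, with a median of 11378.5 UMIs against 6092 in control. Of the selected cells, 38 were marked as doublets, and 4 had a barcode that was also kept in another library.

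The marker check held in part for control skin and failed for most cells of expanded skin. Selected control cells had high Lyz2 (lysozyme), Apoe (lipid transport), Cybb (the membrane subunit of the phagocyte NADPH oxidase) and Mrc1 (mannose receptor). With each cell thinned to 2000 UMIs, Cd14 was found in 83.9% and Adgre1 in 44.4% of control cells. Other macrophage markers were rarer, Fcgr1 in 18.1%, Mertk in 3.40% and Cx3cr1 in 3.17%, and the dendritic cell marker Cd209a was in 20.2%. Mrc1 was also found in 67.2% of dendritic cells picked by Cd209a. Of the 96 expanded cells, 67 (69.8%) carried 3 or more UMIs of Cd207 and Epcam, against 40 of 470 control cells (8.51%). By library, this share was 7.32%, 6.30%, 0%, 12.6% and 9.89% in control skin and 100%, 70.4%, 95.7%, 81.8% and 33.3% in expanded skin. The ranges do not overlap, and the day 4 expanded library lies closest to the controls. The split at 3 UMIs was chosen after these values were seen and is given without a test. It was not a fine cut: 434 of the other 459 cells had 0 UMIs of either gene and 25 had 1 or 2. Since the label of a macrophage goes against these markers in expanded skin, the population is called by its selection rule here, MHC class II C1q cells, and its subsets Cd207/Epcam-positive and Cd207/Epcam-low.

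The Cd207/Epcam-positive cells of expanded skin had little macrophage RNA. Lyz2 was at 0 UMIs in 56 of the 67 expanded positive cells (83.6%), with a median of 0, while the 29 expanded low cells had a median of 24 and the 430 control low cells a median of 51. The 40 positive cells of control skin were mixed: their median Lyz2 was 42 UMIs, 8 of them (20%) had none, and 7 (17.5%) were marked as doublets, against 3 (4.48%) of the expanded positive cells. Positive cells were deeper than low cells, with median UMIs of 12176 and 5961.

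**Figure D1:**
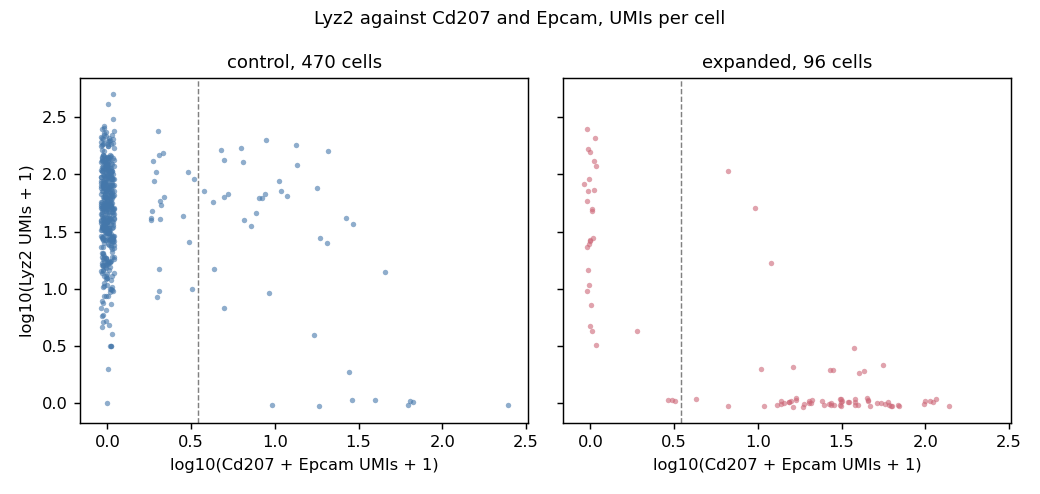
Each point is 1 MHC class II C1q cell, with log10 of its Cd207 plus Epcam UMIs plus 1 on the x axis and log10 of its Lyz2 UMIs plus 1 on the y axis, jittered slightly, and the dashed line marks the split at 3 UMIs. The 470 control cells sit mostly at the upper left, while 56 of the 96 expanded cells lie right of the line with 0 Lyz2 UMIs.

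Both kinds carried C1q, in different proportions of the 3 chains. In Cd207/Epcam-positive cells of expanded skin, C1qa gave 91.8%, 76.4%, 83.6%, 77.5% and 69.5% of the C1q UMIs. In low cells of control skin it gave 41.2%, 36.6%, 39.4%, 40.3% and 40.7%, and in those of expanded skin 32% on day 1 in round 2 and 40.9% on day 4, the libraries with 7 or more such cells. The Cd209f or Folr2 C1q cells, whose selection genes are known from resident dermal macrophages, had 41.0% to 43.1% in control and 31.4% to 38.9% in expanded libraries with 7 or more such cells. Among positive control cells the share was 47.9% in the second round of day 1, 68.3% in the second round of day 2 and 42.2% in the day 4 library. So the high share of C1qa was found in the positive cells of all 5 expanded libraries and in no low or resident sum of 7 or more cells. These values come from genes of the rule and are a description. Of the 67 expanded positive cells, 21 had C1qa without any C1qb or C1qc UMI.

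**Figure D2:**
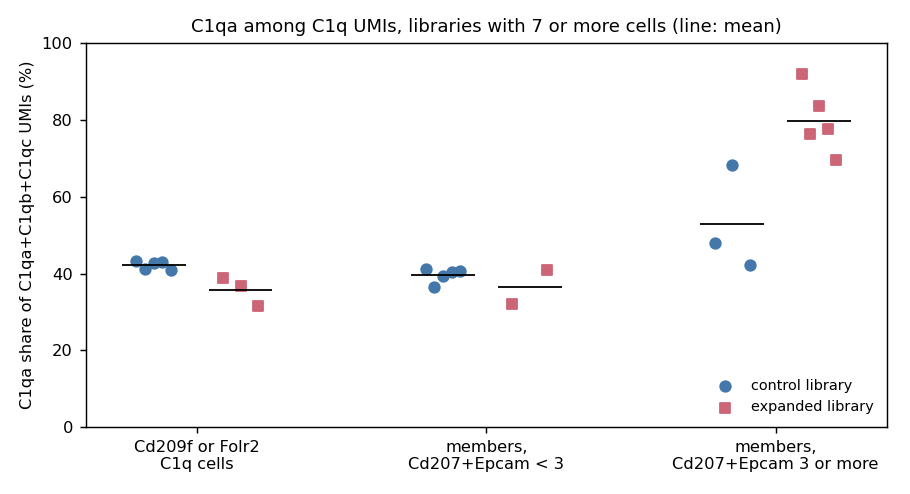
Points are libraries with at least 7 cells of a kind, and the y axis is the share of C1qa among all C1q UMIs in percent, with control libraries as circles, expanded libraries as squares and the mean as a line. Expanded Cd207/Epcam-positive cells sit between 69.5% and 91.8%, above every sum of low or resident cells.

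The C1q genes lie side by side on chromosome 4 of the mouse genome (GRCm38, minus strand), C1qb at chr4:136880129-136886187, C1qc at chr4:136889804-136893065 and C1qa at chr4:136895917-136898803. Since C1qb and C1qc had small shares together in the expanded positive cells, the 250 bases before their RefSeq start sites (GRCm38.p6) are shown, with those of Cd207 on chromosome 6, the gene that marks the same cells. The capitals mark GAGGAA on either strand, a core bound by the myeloid factor PU.1 and other ETS proteins. The windows are chr4:136886201-136886450 for C1qb, chr4:136892915-136893164 for C1qc and chr6:83677858-83678107 for Cd207, all on the minus strand and written 5′ to 3′. The C1qc window lies partly inside the longer GENCODE model of that gene.
C1qb: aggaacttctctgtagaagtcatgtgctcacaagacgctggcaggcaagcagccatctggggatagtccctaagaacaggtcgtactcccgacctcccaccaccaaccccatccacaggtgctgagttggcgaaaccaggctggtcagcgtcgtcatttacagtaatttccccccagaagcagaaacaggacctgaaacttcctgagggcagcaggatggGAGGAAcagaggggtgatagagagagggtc
C1qc: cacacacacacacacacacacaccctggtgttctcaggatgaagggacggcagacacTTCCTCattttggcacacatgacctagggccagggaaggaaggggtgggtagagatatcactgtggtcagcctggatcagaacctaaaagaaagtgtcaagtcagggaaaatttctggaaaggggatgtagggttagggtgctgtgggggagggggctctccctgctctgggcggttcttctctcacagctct
Cd207: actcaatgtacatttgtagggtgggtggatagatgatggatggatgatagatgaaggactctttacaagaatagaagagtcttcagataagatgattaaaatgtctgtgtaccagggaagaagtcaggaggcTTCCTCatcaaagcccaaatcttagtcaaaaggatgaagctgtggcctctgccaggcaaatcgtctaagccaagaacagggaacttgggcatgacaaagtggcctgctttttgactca
Each window held 1 match, whose first base lay 30 bases before the start in C1qb, 193 in C1qc and 118 in Cd207. The same letters were found in 23.3% of 32851 RefSeq promoter windows of 250 bases, so the matches are a description of the sequences only. The same windows of Epcam and Cybb held 0 matches and are not printed, and that of C1qa was not analysed here.

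Cells with Cd207 or Epcam were also examined whatever their C1q, under the other limits of the rule. There were 78, 149, 48, 189 and 293 such cells in control and 56, 85, 50, 28 and 51 in expanded libraries. Their summed C1qa level, in CPM (the gene's UMIs relative to all UMIs of the summed cells), was 67.3, 84.2, 3.96, 86.0 and 78.2 in control and 112, 226, 408, 366 and 254 in expanded libraries, without overlap. The share with 5 or more C1q UMIs was 4.24% ± 2.53 in control and 26.1% ± 12.1 in expanded libraries (SD, n = 5 each). With each cell thinned to 2000 UMIs, 6.21% ± 4.4 and 25.6% ± 12.3 had a C1qa UMI (SD, n = 5 each). In keratin cells of the same libraries (20 or more Krt5 and Krt14 UMIs), which should lack the gene, the share was 0% to 2.41%. Before thinning, median depths were 9113 to 17020.5 UMIs in the Cd207 or Epcam cells and 7013 to 12972.5 in the keratin cells. Summed Lyz2 in the Cd207 or Epcam cells was 1689 to 4638 CPM in control and 303 to 1237 CPM in expanded libraries. Their make-up may thus differ between arms, and its part in the C1qa values was not tested.

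MHC class II C1q cells made up a smaller part of expanded skin. Their share of kept cells was 0.704%, 1.53%, 1.51%, 1.49% and 2.42% in control libraries and 0.271%, 0.459%, 0.678%, 0.571% and 0.789% in expanded libraries. The means were 1.53% ± 0.609 and 0.554% ± 0.200 (SD, n = 5 each), lower in 5 of 5 pairs by 0.977 percentage points (exact two-sided permutation p 0.0159, adjusted p 0.0265 over 5 such tests). The 2 ranges overlap through the control library of day 1, round 1. Permuting within the 5 pairs gave an exact p of 0.0625, the smallest that 5 pairs allow. In hashed libraries, where antibody barcodes assign cells to mice, the mean over 14 control mice was 3.28% ± 1.96 (SD) and over 14 expanded mice 0.939% ± 0.686 (SD), with a permutation p of 5e-05 within day and round. These shares are over cells assigned to 1 mouse, without unassigned cells or those with more than 1 hashtag, so they are not on the scale of the library shares. Of 517 selected cells in hashed libraries, 488 were assigned. The assigned part of all cells may differ between arms, and its effect was not tested. Control and expanded mice of a round were in separate tubes, so the mouse tests, also those by day, cannot tell treatment from tube. By day, the mouse means were 3.45% and 0.682% on day 1 (3 mice each, exact permutation p 0.300, where the smallest possible is 0.1), 2.53% and 0.899% on day 2 (7 each, p 0.00857) and 4.45% and 1.20% on day 4 (4 each, p 0.0286, the smallest that 4 against 4 allow on a two-sided test).

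The fall was in the Cd207/Epcam-low cells. They made up 0.652%, 1.43%, 1.51%, 1.30% and 2.18% of control libraries and 0%, 0.136%, 0.0295%, 0.104% and 0.526% of expanded ones, without overlap. Cd207/Epcam-positive members went the other way, at 0.0515%, 0.0962%, 0%, 0.188% and 0.240% of control and 0.271%, 0.323%, 0.648%, 0.467% and 0.263% of expanded libraries. These ranges do not overlap either, and they are given without a test because the split was chosen on the data. A share is relative to all other cells, so fewer cells of a kind and more cells of other kinds cannot be told apart.

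**Figure D3:**
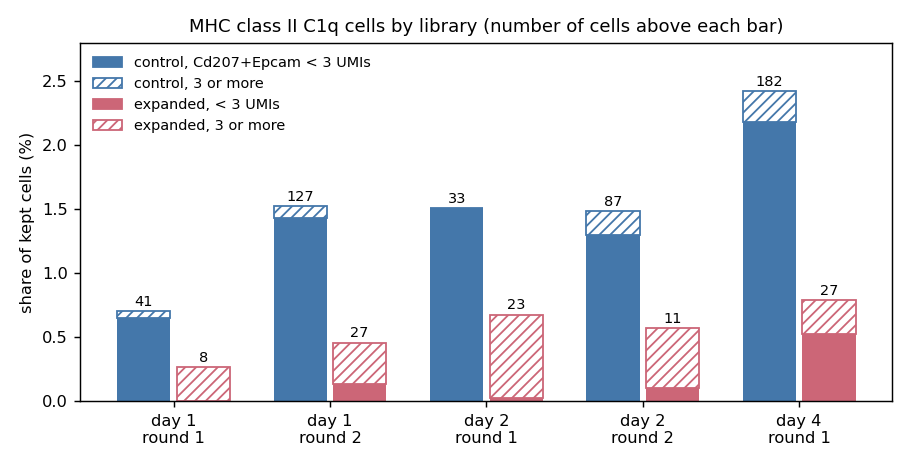
Bars give the MHC class II C1q cells as percent of kept cells for each control and expanded library by day and round, split at 3 Cd207 plus Epcam UMIs, with the number of cells above. Solid parts, the low cells, shrink from 0.652% to 2.18% in control to 0% to 0.526% in expanded libraries, and hatched parts grow.

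The share of C1q cells that were selected did not differ detectably. Members were 17.6% ± 8.24 of the cells with 5 or more C1q UMIs in control and 18.4% ± 8.25 in expanded libraries (SD, n = 5 each, exact permutation p 0.833). The direction turned when any of 4 libraries was left out, control day 1 round 1 (-2.17 points), expanded day 1 round 2 (-1.49), control day 2 round 1 (-0.359) or expanded day 2 round 2 (-0.327). Low cells alone were 16.2% ± 7.20 of C1q cells in control and 4.5% ± 4.15 in expanded libraries (SD, n = 5 each). For comparison, Cd209f or Folr2 C1q cells fell from 6.07% to 0.427% of kept cells (exact permutation p 0.00794, adjusted p 0.0198), and Cd209a dendritic cells from 3.34% to 0.851% (exact permutation p 0.00794, adjusted p 0.0198). C1q cells with 3 or more UMIs of Ly6c2, Chil3, Plac8 and Msr1 together, named Ly6c2 or Msr1 cells here, had 0.498% and 1.1% (exact permutation p 0.206).

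Gene levels were compared on counts summed over the selected cells of a library, in libraries with at least 20 of them, which left 5 control and 3 expanded libraries (day 1 round 2, day 2 round 1 and day 4). The quasi-likelihood test of edgeR, with day as covariate, called 735 of 5125 genes outside the rule at an adjusted p under 0.05, which is 14.3%. Of these, 306 were higher (5.97%) and 429 lower (8.37%) in expanded skin, and the median log2 fold change over all genes tested was -0.00363. Over all 5 against 5 libraries, 885 of these genes (17.3%) had no overlap between arms. The arms also differed in the share of Cd207/Epcam-positive cells, and the part of this in the calls was not tested. In Cd207/Epcam-low cells alone, with 5 control libraries and the 2 expanded ones that had at least 7 of them, edgeR called 0 of 4541 genes (0%), and 346 had an unadjusted p under 0.05. Of 588 called genes that were tested there, 537 kept their direction, with a median absolute log2 fold change of 0.71 against 1.61 over all selected cells. The low cells are part of the selected cells, so both fits share cells and this agreement is no separate evidence. In the positive cells alone, with 3 control and 5 expanded libraries, 132 of 3403 genes (3.88%) were called.

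The count rested on a few libraries. It was 40 without the expanded library of day 1 round 2, 117 without that of day 2 round 1, 359 without the control library of day 1 round 1 and 318 without that of day 1 round 2. With day and round as a block it was 420, and with cells thinned to 2000 UMIs 190. Fitted on all 10 libraries, down to 8 cells, 1291 of 5529 genes (23.3%) were called, and 699 of the 735 were among them, all in the same direction. That fit includes the libraries that gave the 735 calls. With mice in place of libraries, 800 of 2846 genes (28.1%) were called over 14 control and 6 expanded mice with 5 or more selected cells. Mice of an arm and round shared a tube, so this fit cannot tell treatment from tube.

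Epcam and Cd207 were higher in expanded skin. Epcam was at 2.96, 65.2, 0, 185 and 79 CPM in control and 1721, 1186, 1141, 1168 and 658 CPM in expanded libraries. All expanded values lie above all control values, and the log2 fold change was 3.70 (SE 0.75, edgeR adjusted p 0.0123). DESeq2 did not call it (adjusted p 0.0611). Cd207, the langerin of Birbeck granules, was at 82.7, 183, 11, 513 and 40.6 CPM in control and 450.0, 946, 2686, 772 and 484 CPM in expanded libraries, where only the control library of day 2 round 2 reached the expanded range (log2 fold change 3.01, SE 0.65, adjusted p 0.0161). The set of dendritic cell markers had 7 tested genes, of which Cd207, Epcam, Cd24a and Ccr7 rose and Cd209a and Tnip3 fell, with a median log2 fold change of 2.57. The shares over all genes were 5.97% higher and 8.37% lower. With the block, Ccr7 did not pass (adjusted p 0.180 by edgeR). Clec9a, a marker of type 1 dendritic cells, was at 0 in every library.

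Other genes that rose included Mfge8, which bridges dying cells to phagocytes, Cldn1, a tight junction protein, Ltc4s, the leukotriene C4 synthase, and Hpgds, a prostaglandin D synthase. Mfge8 was at 26.6, 115, 0, 572 and 25.9 CPM in control and 787, 2035, 5973, 5312 and 1346 CPM in expanded libraries, without overlap (log2 fold change 4.67, SE 0.83, adjusted p 0.00836 by edgeR). Hpgds was at 85.3 to 166 CPM in control and 323 to 1597 CPM in expanded libraries (log2 fold change 2.06, SE 0.23, adjusted p 0.00151). The largest rise among the genes named by rule was that of Tnfrsf9, the costimulatory receptor 4-1BB. It was at 0, 1.55, 5.52, 2.57 and 1.40 CPM in control and 0, 132, 362, 146 and 121 CPM in expanded libraries, so the day 1 round 1 expanded library, with 8 cells, did not share the rise (log2 fold change 6.40, SE 0.36, adjusted p 2.86e-05). The serine protease St14 and its inhibitor Spint1, the tetraspanin Tspan8, Cd9 and the decoy receptor Il1r2 also rose. In Cd207/Epcam-low cells of expanded skin, Tnfrsf9 stood at 0 and 162 CPM in the libraries of day 1 round 2 and day 4.

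**Figure D4:**
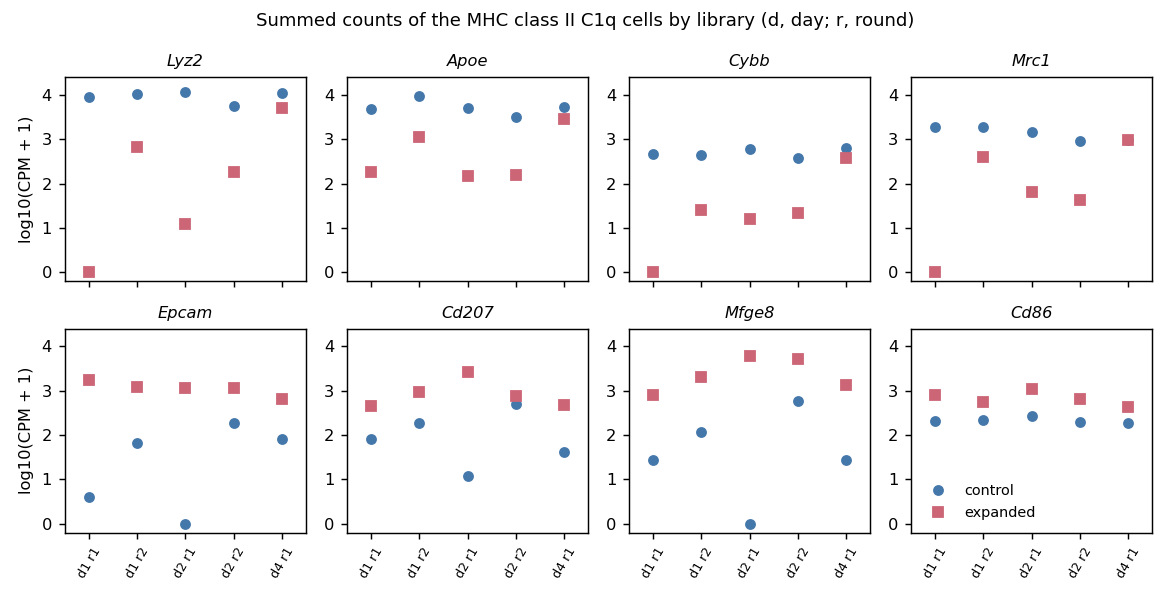
Points are log10 of CPM plus 1 in the summed MHC class II C1q cells of each library, control as circles and expanded as squares, from day 1 round 1 (d1 r1) to day 4 (d4 r1). Lyz2, Apoe and Cybb are lower in all 5 expanded libraries and approach control on day 4, while Epcam, Mfge8 and Cd86 are higher in all 5.

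Macrophage genes were lower over all selected cells, where 8.37% of all tested genes were called lower and 5.97% higher. Of 18 tested macrophage identity genes, 11 fell and 0 rose, with a median log2 fold change of -1.25. With day and round as a block 6 of them fell. Lyz2 (named after its values were seen) was at 8801, 10546, 11459.7, 5573 and 11026 CPM in control and 0, 649, 11.1, 181 and 4981 CPM in expanded libraries (log2 fold change -4.34, SE 1.21, adjusted p 0.0404 by edgeR, or 0.0836 with the block). The day 4 value lay just under the lowest control and the others far below it. Apoe was at 3127 to 9551 CPM in control and at 180.0, 1142, 144, 153 and 2866 CPM in expanded libraries (log2 fold change -2.99, SE 0.67, adjusted p 0.0184). Adgre1 (F4/80) and Cd14, a co-receptor for lipopolysaccharide, fell as well, by 2.21 and 1.70 on the log2 scale (adjusted p 0.0110 and 0.0117). The receptor Csf1r, on which both macrophages and Langerhans cells depend, did not pass the test, with 288 to 579.6 CPM in control and 425 to 844 CPM in expanded libraries (log2 fold change 0.35, SE 0.29, adjusted p 0.455; named after its values were seen). Within Cd207/Epcam-low cells, Lyz2 was at 6865 to 11895 CPM in the 5 control libraries and 3674 and 7489 CPM in the expanded ones of day 1 round 2 and day 4. Mrc1 was at 1049 to 2029 CPM and 2313 and 1418 CPM in the same libraries.

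The NADPH oxidase makes superoxide in phagocytes and was the third marker given for these cells. Cybb, its catalytic subunit, was at 452, 442, 607, 368 and 624 CPM in control and 0, 23.7, 14.8, 20.9 and 366 CPM in expanded libraries. The day 4 expanded library lay just under the lowest control and the other 4 far below (log2 fold change -3.30, SE 0.73, adjusted p 0.0179 by edgeR). Of the 7 tested oxidase genes, the GTPase Rac2 also fell (log2 fold change -2.69), while the subunit Ncf4 and the proton channel Hvcn1 rose (1.21 and 1.99). Among all tested genes 5.97% were higher and 8.37% lower, so counts this small are no result about the list. Ncf4 did not pass with the block (adjusted p 0.0557 by edgeR). In Cd207/Epcam-low cells, Cybb was at 449 to 688 CPM in the 5 control libraries and 136 and 476 CPM in the expanded ones of day 1 round 2 and day 4.

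Genes of resident and alternatively activated macrophages fell with the identity genes, beside 8.37% lower and 5.97% higher over all genes. Of 17 tested resident genes 8 fell, among them Cd36, Igf1, Mrc1 and the lectin Mgl2, and 2 rose, Ltc4s and Timd4. With day and round as a block these counts were 4 and 2, and Mrc1 had an edgeR adjusted p of 0.0907, or 0.0604 with thinned cells (log2 fold change -1.48 in place of -2.36). Of 12 tested genes of alternative activation 5 fell and 0 rose, and 3 fell with the block. Retnla, a secreted protein induced by IL-4, was at 839, 365, 2523, 27 and 1439 CPM in control and 0 in all 5 expanded libraries, at least 339-fold lower over the pooled libraries against a floor of 3 counts (adjusted p 0.0181 by edgeR). It was also at 0 in the 29 expanded Cd207/Epcam-low cells, at least 97.9-fold lower than in control low cells, whose libraries ranged from 35.6 to 2523 CPM. Mmp19, a matrix metalloproteinase, was at 699.7 to 1909 CPM in control and 6.95 to 279 CPM in expanded libraries (log2 fold change -3.94, SE 0.73, adjusted p 0.00870), and in low cells at 821 to 2086 CPM in control and 214 and 345 CPM in expanded libraries. Retnla and Mmp19 thus also had lower values in the low cells, where no gene passed the test.

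The largest falls by the naming rule included further genes of several kinds. Ear2, an eosinophil-type ribonuclease, had a log2 fold change of -5.12 (SE 0.56, adjusted p 0.00151 by edgeR) and Lyz1, a second lysozyme, of -4.80 (SE 0.82, adjusted p 0.00680). The scavenger receptor Cd36 (-4.83), the fatty acid binding protein Fabp4 (-4.77) and the lipid regulator Pparg (-4.41) fell as well. The long noncoding RNA Meg3 and the matrix protein Mfap4 were at 0 in all 5 expanded libraries, at least 21-fold and 16-fold lower. The stromal genes Col3a1 (-4.39) and Clec3b (-4.65) and the epithelial factor Ehf completed the 12 with Retnla and Cxcl3. With doublets left out the log2 fold change of Col3a1 was -2.79 and that of Ear2 -8.65.

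Of 21 tested growth factor and repair genes 14 fell and 0 rose, including Fn1 (fibronectin), Igf1, Pdgfa and Mmp19, with a median log2 fold change of -1.93, and 9 fell with the block. Of 23 tested genes of lipid handling and lysosome 12 fell, including the lipid droplet protein Plin2 and the cholesterol carrier Npc2, and 2 rose, Cd9 and Cd63, the latter not with the block (adjusted p 0.0748 by edgeR). Of 16 tested genes for phagocytosis and Fc receptors 9 fell, including Fcgr1 and Fcer1g, and Timd4 rose, while with the block 2 fell, Fcer1g no longer among them (adjusted p 0.0549 by edgeR). With cells thinned to 2000 UMIs neither Fcgr1 (log2 fold change -1.55, edgeR adjusted p 0.147) nor Fcer1g (-0.75, adjusted p 0.0954) passed. Of 8 tested complement genes beyond C1q, C3 and the receptor C3ar1 fell (log2 fold change -2.92 and -2.80). With 5.97% higher and 8.37% lower over all genes, the complement count is too small for a result about that list. Of 18 genes for redox, iron and metallothionein 5 fell, among them Mt1, Ftl1 and the iron transporter Slc11a1, of which Mt1 did not pass with thinned cells (edgeR adjusted p 0.0577).

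Among signalling genes, 5 of 19 tested chemokines fell (Ccl6, Ccl9, Cxcl1, Cxcl2 and Cxcl3) and Cxcl16 rose. Cxcl1 and Cxcl2 did not pass with the block (edgeR adjusted p 0.0502 and 0.0548), nor over all 10 libraries (0.109 and 0.0700). With thinned cells Ccl6 had a log2 fold change of -1.63 in place of -2.84 and did not pass (edgeR adjusted p 0.0753), nor did Cxcl2 (0.0520). Cxcl3, which attracts neutrophils, was at 176 to 1126 CPM in control and 0 to 21.7 CPM in expanded libraries (log2 fold change -5.03, SE 0.84, adjusted p 0.00641 by edgeR). Of 19 inflammatory genes, Il18 and Tnfaip2 rose and Il1rn, Il10 and Nfkb1 fell (Il10 not with thinned cells, edgeR adjusted p 0.0570). Over all genes 5.97% were higher and 8.37% lower, so counts this small are no result about the list. Il1b did not pass the test (log2 fold change 0.26, SE 0.40). Among chemokine and monocyte receptors, Il10ra fell and Ccr7, the receptor used to leave the skin for lymph nodes, rose. Ccr2 had no call (log2 fold change -2.14, SE 0.73, adjusted p 0.0749). Of the interferon lists, 3 of 12 type I genes and 2 of 14 interferon-gamma genes fell and 0 rose, beside 8.37% lower over all genes. With the block the interferon-gamma list had 1 fall, and counts this small are no result about these genes. Immediate early genes gave 3 rises and 3 falls of 25, and 0 and 1 with the block, which is no result about them either. Glycolysis (21 tested) and cell cycle (6 tested) genes gave 0 calls in edgeR. At an unadjusted p under 0.05 edgeR had 3 and 1 of them, and DESeq2 called 1 and 0.

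Of 14 tested helper genes of antigen presentation, the costimulators Cd86 and Cd40 and the class II regulator H2-Oa rose and Cd274 (PD-L1) fell. Beside 5.97% higher and 8.37% lower over all genes, counts this small are no result about the list. With day and round as a block Cd40 and Cd274 did not pass (edgeR adjusted p 0.110 and 0.103). Cd86 was at 207, 220.4, 265, 196 and 182 CPM in control and 799, 558, 1097, 654 and 431 CPM in expanded libraries, without overlap (log2 fold change 1.47, SE 0.27, adjusted p 0.00862 by edgeR). In Cd207/Epcam-low cells its log2 fold change was -0.49, and in the positive cells 1.31. H2-Ab1, which the rule used, was at 7431 to 9701 CPM in control and 9528 to 15083 CPM in expanded libraries, a description only.

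**Figure D5:**
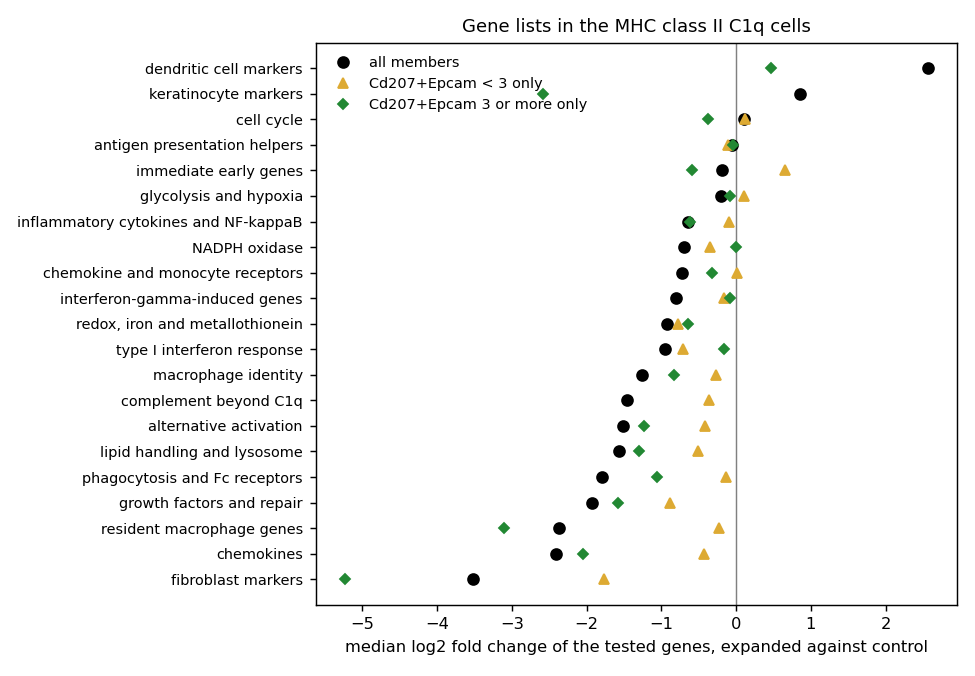
The x axis is the median log2 fold change of the tested genes of each list, expanded against control, in all selected cells (circles), Cd207/Epcam-low cells only (triangles) and Cd207/Epcam-positive cells only (diamonds), for lists with at least 5 tested genes. The macrophage identity list lies at -1.25 over all cells and at -0.27 in low cells, and most lists are nearer to 0 in low cells than over all cells.

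Markers of other skin cells differed too, in a fit with 8.37% lower and 5.97% higher over all genes. Of 12 tested fibroblast markers 7 fell and 0 rose, and their summed level was 1275 to 7737 CPM in control and 432 to 2242 CPM in expanded libraries, with Col1a1 at 331 to 1696 and 0 to 167 CPM. The log2 fold change of Col1a1 was -4.24, and -2.81 with doublets left out. Keratinocyte markers summed to 55.2 to 576 CPM in control and 111 to 2619 CPM in expanded libraries, with 1 rise, Dmkn, among 8 tested, which did not pass with doublets left out (edgeR adjusted p 0.0829). Of the neutrophil markers 6 of 14 were at 0 in all libraries, and Il1r2 made up the 1 rise. Trac was at 0 throughout. Their part in the other differences was not tested.

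Within the Cd207/Epcam-positive cells, 31 genes were higher and 101 lower in expanded skin, against 3 control libraries whose positive cells also carried macrophage and fibroblast RNA. Lyz2 was at 5739.6, 1493 and 6596 CPM in those controls and 0 to 1332 CPM in the expanded libraries. Col1a1 was at 162, 1525 and 1125 CPM in the controls, and 7 of 9 tested fibroblast markers were called lower. Csf1r and Cd86 were among the higher genes, at log2 fold changes of 1.31 each, as was Ltc4s. Epcam and Cd207 chose these cells, so their values within them are not read as a difference. These counts describe a split chosen on the data.

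Cell by cell, with every cell thinned to 2000 UMIs, Mrc1 was detected in 78.7% of 441 control and 29.5% of 95 expanded selected cells, and Cybb in 57.4% and 10.5%. Unthinned medians of these cells were 6313 and 11398 UMIs. In keratin cells Mrc1 was found in 1.01% and Cybb in 0.251%. Cd9 was found in 21.3% and 68.4%, but also in 87.4% of keratin cells. Il1b was found in 42.9% and 49.5%, Ccr2 in 32.9% and 14.7% and the proliferation gene Mki67 in 7.03% and 10.5%. The cells of 1 library are not replicates, so these shares have no test.

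Days could be compared only in mice with 5 or more selected cells, of which expanded skin had 1 at day 1, while day 2 had 2 such mice and day 4 had 3. The single expanded mouse of day 1 is assumed to vary like the mice of the other groups, so every value that involves day 1 rests on it. The 2 expanded mice of day 2 came from different rounds, each fitted as its own group, so their spread is assumed as well. Of the expanded groups, only that of day 4 held more than 1 mouse. The edgeR fit called 240 of 4207 genes on day 1 (5.7%). It called 749 genes (17.8%) for day 2 and 12 (0.285%) for day 4. The response differed between days 4 and 2 in 64 genes (1.52%) and between days 2 and 1 in 2 (0.0475%). Between days 4 and 1 it differed in 0 (0%), where 413 had an unadjusted p under 0.05. The share of Cd207/Epcam-positive cells differed between these days too, with 33.3% in the day 4 expanded library.

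The response of the selected cells was set against 3 neighbouring populations by an interaction test in edgeR, with library as block. It differed from that of Cd209f or Folr2 C1q cells in 3 of 8273 genes (0.0363%), Ccl9, Cst3 and Cd86. In the 2 expanded libraries with enough cells of both kinds, day 1 round 2 and day 4, Ccl9 was at 142 and 37.2 CPM in selected cells and 1852 and 369.9 CPM in the neighbours. In the 5 control libraries it was at 257 to 923 CPM and 586 to 1582 CPM (log2 difference -2.84, SE 0.30, adjusted p 0.00283). The response differed from that of Cd209a dendritic cells in 9 of 8733 genes (0.103%), among them Tnfrsf9, Ly75, Zeb1, Igfbp7, Arap2 and Plp2 with a more positive difference in the selected cells and Tlr2 and Gmfg with a more negative one. Against C1q cells with Ly6c2 or Msr1, 0 of 7850 genes (0%) passed and 467 had an unadjusted p under 0.05. With thinned cells the counts were 9, 16 and 0, and only 2 expanded libraries held enough cells of both kinds in each comparison. The comparison with Ly6c2 or Msr1 cells also had only 2 such control libraries, against 5 in the others. Its count of 0 is therefore not comparable with the other counts. Of the expanded libraries used, Cd207/Epcam-positive cells made up 70.4% of selected cells on day 1 round 2. The share was 95.7% on day 2 round 1 and 33.3% on day 4, against 0% to 12.6% in control libraries. The response thus spans a different mix of cells in each arm, whose part was not tested.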

How the data were processed

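Gene UMI counts per cell barcode were deposited as matrices of 32285 genes, made with Cell Ranger 6.1.2 on mm10 per the submitters' processing notes, with hashtag counts deposited for 4 of the 5 control and expanded library pairs. Nothing is stated on filtering of barcodes beyond this. Kept cells had 200 or more genes, 500 or more UMIs and no more than 10% of UMIs from mitochondrial genes. Doublets were marked with Scrublet (scanpy 1.11.5) and by more than 1 hashtag, and left out only as an alternative. Cells were given to mice with HTODemux (Seurat 5.3.0). Counts were summed per library and tested with edgeR 4.0.16 (R 4.3.3; TMM, filterByExpr, quasi-likelihood test, Benjamini-Hochberg adjustment over all genes tested, threshold 0.05), or with DESeq2 1.42.0 as an alternative. CPM were computed from the sums. Shares were compared by exact or 100000-resample permutation tests (Python 3.11.15, scipy 1.17.1). Nothing says that libraries of an arm came from separate preparations of mice beyond the day and round, and p-values measure the spread between these libraries. On simulated counts of 4680 genes for the 5 against 3 libraries, the edgeR test recovered 21.3% of 94 genes changed by 1 on the log2 scale and 86.4% of 88 changed by 2, with 4 false calls.

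The members, gene lists and comparisons were chosen with earlier results of these data known. Genes named were C1qa, H2-Ab1, Cybb, the 12 largest rises and falls past the threshold with the same direction in the 3 pairs of the fit and a mean of at least 20 CPM, up to 4 passing genes per list (the 2 highest where fewer passed), every gene of the list for variation among cells, and the 5 largest interactions. Lyz2, Csf1r and other list genes named beyond these were chosen after their values were seen. The number after the day in the labels was taken as a round shared by control and expanded libraries, which the labels themselves do not say. Deviations of paired libraries from their arm means correlated at -0.0162 to 0.153 over 5125 genes. A control library correlated best with the expanded library of its own number in 2 of 5 pairs. Tables held 0 columns of other series. Promoter sequences are from RefSeq (GRCm38.p6) and gene positions from GENCODE (GRCm38). The mouse fit planned for mice with at least 20 selected cells could not be made, and mice with at least 5 were used.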

Additional observations from a re-analysis of the deposited data

Results flagged for a closer look

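In 40 of the 200 groups of libraries or mice checked, 1 sample stood apart from the rest of its group by Dixon's criterion, where chance gives about 1 in 20 groups. That rate need not hold near the floor, where very few UMIs set a value apart, as for Ttll7, Fabp4, Clec3b and Pparg. Among the 5 control libraries, the highest CPM stood apart for Ttll7 (1.55), Serpind1 (2.57), Spint1 (7.72), Ltc4s (56.6), Mfge8 (572), Fam189a2 (20.6), Tmem45b (12.9), Cxcl3 (1126), H2-Oa (11.6), Ccr7 (29.4) and Fcer1g (1627), and the lowest for Cd14 (1012). Among the 5 expanded libraries, the highest stood apart for Ehf (11.2), Ear2 (9.3), Cd36 (7.39), Fabp4 (3.1), Clec3b (3.69), Pparg (3.38), Col3a1 (121), Ncf4 (702), Rac2 (46.5), Cybb (366), Cd274 (80.6), Igf1 (43.4), Mgl2 (381), Il18 (550.4), Nfkb1 (335), Il1rn (354), Ccl9 (142), Bst2 (271), Gbp2 (109), Npc2 (875), Fcer1g (1324), Mmp19 (279), Fn1 (74.4), Ndrg1 (1433), Cd207 (2686), Lgals7 (291) and Csf3r (21.7). Of the 4 control mice of day 4, 1 had 7.93% of its cells in the population, above the rest.

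By the interaction test of edgeR, the log2 response of MHC class II C1q cells differed from that of Cd209f or Folr2 C1q cells for Ccl9 (-2.84), Cst3 (1.90) and Cd86 (1.86). It differed from that of Cd209a dendritic cells, among others, for Tnfrsf9 (7.60), Igfbp7 (7.14), Arap2 (4.42), Ly75 (4.07) and Zeb1 (3.82). The selected cells held a larger share of Cd207/Epcam-positive cells in expanded than in control skin, and its part in these differences was not tested. Between days, the log2 response in mice was higher on day 4 than on day 2 for Mgl2 (9.51), Ccr2 (9.16), Lilr4b (9.07), Maf (9.02) and Cybb (8.50), and lower on day 2 than on day 1 for Tmsb10 (-6.39) and Lyz2 (-4.94). The day 1 value rests on 1 expanded mouse, assumed to vary like the other groups. The day 2 value rests on 1 expanded mouse in each of 2 rounds, under the same assumption. Where a gene is at 0 in a sum, the size of its fitted difference depends on the prior count.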

How the results depend on the processing

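With the replicate block (pairing by day and round), the lower share of kept cells (-0.977 percentage points) had an exact p of 0.0625, the smallest that 5 pairs allow, and the count of changed genes was 420 instead of 735. Of the named rises, Ttll7 and Serpind1 did not pass with this pairing (edgeR adjusted p 0.113 and 0.0751). The count was 1300 with no filter on low counts, 190 with cells thinned to 2000 UMIs, 1291 over all 10 libraries and 1158 there with the replicate block. It was 0 in Cd207/Epcam-low cells and 132 in positive cells. Leaving out 1 library at a time gave 40 to 995 changed genes, -1.18 to -0.754 points for the share of kept cells and -2.17 to 3.76 points for the share of C1q cells, whose sign turned without the control libraries of day 1 round 1 (-2.17) and day 2 round 1 (-0.359) and the expanded ones of day 1 round 2 (-1.49) and day 2 round 2 (-0.327). The share of kept cells was 0.279 points higher for positive cells alone, and the share of C1q cells -11.7 points for low cells alone. Per mouse, the share of C1q cells differed by -0.357 points (permutation p 0.948). With thinned cells, the responses differed in 9 genes from Cd209f or Folr2 C1q cells and in 16 from Cd209a dendritic cells. In low cells the direction turned for Ctsc (0.023), Cd86 (-0.49), Cd40 (-0.10), Tnfaip2 (-0.35) and Fcer1g (0.14), and in positive cells for Srxn1 (0.16), Cd207 (-0.16) and Lgals7 (-2.89). Apart from fewer samples, cells or genes in those settings, the cause was not tested. DESeq2 gave 778 changed genes, RLE scaling 737, doublets left out 806 and an MHC class II limit of 2% 859. The C1q limit of 10 with at least 20 cells per library left no expanded library and was not run; with at least 10 cells it gave 749. The settings on all 10 libraries, on 5 cells per mouse and on the Cd207/Epcam split were chosen after seeing the data. The small number of expanded cells, 96 in all, limits depth: the expanded sums hold 8 to 27 cells each.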
